A study of Mus musculus with 4 samples.

Results

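The genes described here were 9 of the 32285 genes in the count tables, chosen by symbol as members of the interferon gamma response: the cytokine Ifng, the receptor chain Ifngr1, the transcription factor Irf1, the guanylate binding proteins Gbp2, Gbp3 and Gbp7, and the immunity related GTPases Iigp1, Irgm1 and Igtp. All 9 symbols were found. Transcripts were counted in single cells (10x droplets) freed by collagenase from tibial muscle of Nse-Bmp4 mice, a model of bone formation in muscle in which the Nse promoter drives Bmp4. All mice were on the C57BL/6 strain, 6 to 8 weeks old, and carried the transgene, the uninjured group included. There were 4 libraries, 1 of uninjured muscle (Uninjured) and the others of muscle taken 1, 3 or 7 days after an injection of cardiotoxin, a venom toxin that destroys muscle fibres (dpi, days post injury). Each library was a pool of 3 tibial muscles, so that library and time point cannot be told apart and no test between time points was possible.

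Interferon gamma is released mainly by natural killer (NK) cells and T cells and binds a receptor of IFNGR1 and IFNGR2 chains on most cells. Signalling from the receptor acts through GAS elements of promoters such as that of Irf1, and IRF1 and related factors in turn bind interferon stimulated response elements (ISRE) of further genes. Among these are the guanylate binding proteins and the immunity related GTPases, which gather on membranes of intracellular microbes and which type I interferon can also induce.

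Promoters were read from RefSeq on GRCm38.p6, as 250 bases before to 50 bases after each annotated start, for 8 of the 9 genes; Iigp1 is named only. The letters GAAA followed after any 2 bases by GAAA (or TTTC by TTTC, for the other strand), here called ISRE-like, were found in 3.44% of 32851 windows. The letters TTC followed after any 3 bases by GAA, which read the same on both strands and are here called GAS-like, were found in 8.3%. The windows of all 5 GTPases with an entry held the ISRE-like letters, for Gbp3 in 1 of its 2 windows. GAS-like letters were found for Gbp7, Igtp, Ifng and, in 1 of its 2 windows, Irf1, and neither for Ifngr1. The stretches before the start are shown for the 5 GTPases with an entry and for Irf1. Matched letters are in capitals, with overlapping matches run together. A match describes the letters only and is no measure of binding. For Gbp2 and Irgm1 the matches lie inside the GENCODE gene models, and 30 bases are shown. The stretches were chr3:142530186-142530335 (plus strand) for Gbp7, chr3:142559894-142560025 (plus) for Gbp3, chr3:142620594-142620623 (plus) for Gbp2, chr11:48871428-48871457 (minus) for Irgm1, chr11:58199406-58199555 (plus) for Igtp and chr11:53769864-53770013 (plus) for Irf1.
Gbp7: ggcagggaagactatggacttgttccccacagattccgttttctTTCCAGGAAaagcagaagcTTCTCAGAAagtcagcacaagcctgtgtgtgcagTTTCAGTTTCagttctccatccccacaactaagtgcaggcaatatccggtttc
Gbp3: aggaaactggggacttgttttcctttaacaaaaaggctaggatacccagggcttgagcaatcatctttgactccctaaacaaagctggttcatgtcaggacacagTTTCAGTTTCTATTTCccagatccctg
Gbp2: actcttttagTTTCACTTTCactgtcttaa
Irgm1: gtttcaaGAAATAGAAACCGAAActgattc
Igtp: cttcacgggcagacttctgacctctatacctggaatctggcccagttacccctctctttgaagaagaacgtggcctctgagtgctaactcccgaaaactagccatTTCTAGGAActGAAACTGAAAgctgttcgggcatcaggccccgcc
Irf1: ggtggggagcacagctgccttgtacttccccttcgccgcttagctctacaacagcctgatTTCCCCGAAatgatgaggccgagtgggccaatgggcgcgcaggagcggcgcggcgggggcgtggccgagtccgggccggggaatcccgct

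The libraries held 12031 to 23752 cell barcodes and 91146335 to 129007669 unique molecular identifiers (UMIs, each a counted transcript), with a median per cell that was highest in Uninjured (8629 UMIs) and lowest at 7 dpi (3083 UMIs). Between 30 and 95 barcodes were shared by pairs of libraries. After filtering, 52853 of 62665 cells were kept, and each was assigned to a class by detection of markers or left without one (12074 cells). The level of a gene in a class is its share of the UMIs of those cells, scaled to 1000000 (CPM). With 3′ counting of UMIs a longer transcript does not give more counts, so levels of different genes were compared without scaling to length. Intervals are at 95% and cover counting error only. A gene was called past 2-fold between libraries when its ratio was at least 2 or at most 0.5, its interval excluded 1 and the libraries together held at least 50 UMIs. MSC lineage cells (mesenchymal stem cells and their progeny without the chondrocyte and tenocyte classes) held 3057 to 8000 cells per library, T cells 343 to 821, monocytes and macrophages 252 to 1576, and NK cells 97 to 604. In each of these the summed markers of the class exceeded those of any other class in every library. The summed markers of MSC lineage cells were lower at 1 dpi than in Uninjured in monocytes and macrophages (244 against 274 CPM), T cells (307 against 493 CPM), NK cells (293 against 651 CPM) and B cells (370 against 577 CPM), and were 1531 to 2447 CPM in these classes at 7 dpi. Endothelial cells were few, with 23 cells in Uninjured and 64 at 1 dpi, chondrocytes and tenocytes had more UMIs of the MSC lineage list than of their own, and dendritic cells at 1 dpi had more UMIs of the monocyte list than of their own.

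Ifng, the ligand (ENSMUSG00000055170, chromosome 10, 118441046 to 118445892 on GRCm38), was found mainly in lymphocytes, and its course differed between NK and T cells, though the difference was not tested. NK cells, which hold ready Ifng transcripts at rest, had 989 CPM in Uninjured, 544 at 1 dpi, 683 at 3 dpi and 619 at 7 dpi. T cells had 167, 284, 686 and 222 CPM. The uninjured library was thus the highest for NK cells, and the 3 dpi library was the highest for T cells. In NK cells the level at 1 dpi was 0.551 (interval 0.487 to 0.624) of that in Uninjured, a difference that did not pass 2-fold and rested on 346 UMIs of 97 uninjured cells. The summed markers of the NK class itself were at 14674, 6730, 7791 and 8459 CPM, lowest at 1 dpi like Ifng, and their part in the result was not tested. In T cells the level at 1 dpi was 1.70 (1.46 to 1.98) times that in Uninjured, and the level at 3 dpi was 2.41 (2.22 to 2.63) times that at 1 dpi, past 2-fold. At 3 dpi the levels of T and NK cells lay within each other's intervals.

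The T cell peak of Ifng was seen in both main subsets. CD4 T cells, the helper subset, had 167 CPM in Uninjured, 244 at 1 dpi, 796 at 3 dpi and 171 at 7 dpi. CD8 T cells, the cytotoxic subset, had 173, 278, 646 and 217 CPM. Between 1 and 3 dpi the ratio was 3.26 (2.71 to 3.93) in CD4 and 2.32 (2.02 to 2.67) in CD8 T cells, and both were past 2-fold. At 7 dpi the level was 4.66-fold below that at 3 dpi in CD4 and 2.98-fold below it in CD8 T cells. At 3 dpi these subsets held 324 and 601 of the 1562 Ifng UMIs of T cells, and other T cells held the rest. Gamma-delta T cells, a smaller subset, were highest at 1 dpi, with 247, 149 and 37.2 CPM at 1, 3 and 7 dpi. They had too few UMIs for a call, with 30, 18 and 3.

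The peak went with more T cells that carried the transcript. The share of T cells with at least 1 Ifng UMI was 14.6% in Uninjured, 33.4% at 1 dpi, 47.1% at 3 dpi and 20.7% at 7 dpi. With every cell thinned to 1000 UMIs (796 of 821 cells at 3 dpi and 539 of 550 at 7 dpi were deep enough), the shares were 7.29%, 16.6%, 33.9% and 14.5%, in the same order of libraries. In B cells, which should lack Ifng, the unthinned share was 0%, 0.884%, 1.31% and 0%, at median depths of 1431 to 2829 UMIs against 2006.5 to 4057.5 in T cells. The 0 of 201 uninjured B cells allow a share of up to 1.82% (upper exact Clopper-Pearson limit). NK cells with a UMI made up 73.2%, 67.2%, 66.2% and 54.6%, and 42.3%, 35.7%, 40.4% and 39.8% after thinning, with intervals that overlapped in all 4 libraries after thinning. The tenth of T cells with the most Ifng held 92.1% of the T cell Ifng UMIs in Uninjured and 53.8% at 3 dpi, without thinning. These values depend on the share of T cells with a UMI and are no separate measure of spread.

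In the other named classes Ifng was at 7.36 CPM or less, apart from 15 UMIs (17.7 CPM) in uninjured Schwann cells, 14 UMIs (75.1 CPM) in 30 keratinocytes at 3 dpi and 1 UMI in 32 mast cells at 7 dpi. Cells without a class had 14.7, 28.4, 38.1 and 22.4 CPM. MSC lineage cells had 0.333, 1.56, 1.81 and 3.62 CPM, monocytes and macrophages 0, 1.31, 6.73 and 3.15 CPM, and B cells 0, 2.76, 7.36 and 0 CPM. NK and T cells, cells with both marker sets included, held 75.0% (74.0 to 75.8%) of the 8980 Ifng UMIs of all kept cells, MSC lineage cells held 3.13%, and cells without a class held 19.4%. The share in NK and T cells was 84.0% in Uninjured and 53.3% at 7 dpi, where 33.9% of Ifng UMIs were in cells without a class. At 1 dpi the level in NK cells was 1.92 (1.74 to 2.11) times that in T cells and 348 (257 to 482) times that in MSC lineage cells.

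**Figure D1:**
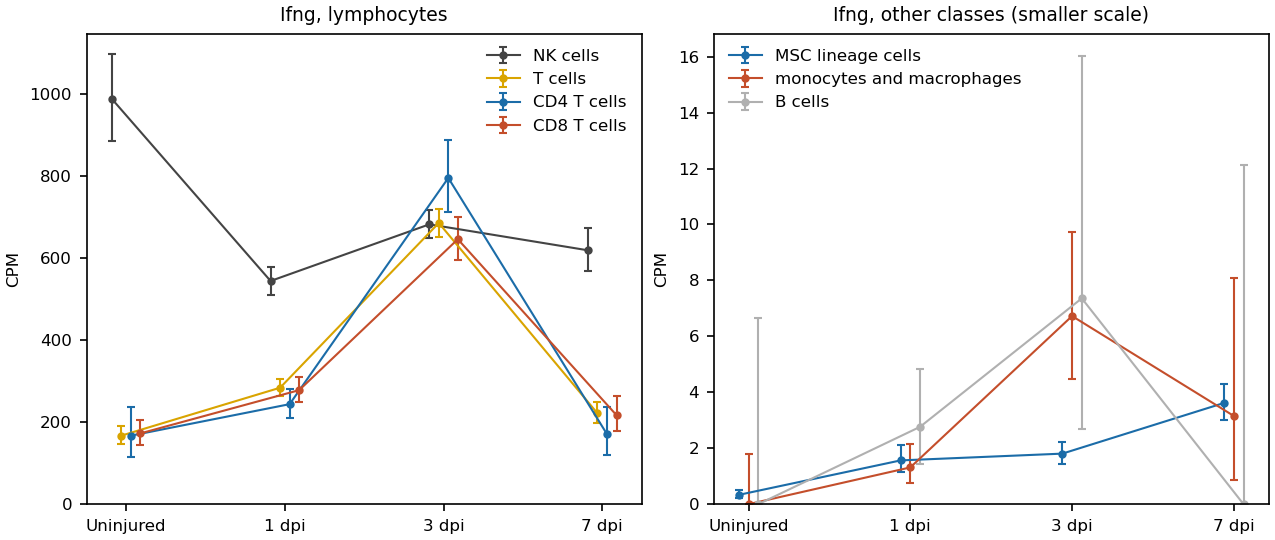
Ifng level in CPM of summed UMIs (vertical axes, which differ between panels) by library (horizontal axes), with 95% Poisson intervals as bars. In the left panel NK cells start highest at 989 CPM and T cells, CD4 and CD8 alike, peak at 3 dpi; the right panel shows MSC lineage cells, monocytes and macrophages, and B cells, at 7.36 CPM at most.

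Ifngr1, the ligand-binding receptor chain (ENSMUSG00000020009, chromosome 10, 19591949 to 19610229), was found in each class described here, and its level differed between libraries in different directions by class. In MSC lineage cells it was 292 CPM in Uninjured, 269 at 1 dpi, 157 at 3 dpi and 62.1 at 7 dpi. Each later library was lower, by 4.34-fold from 1 to 7 dpi, and chondrocytes, the cartilage cells found at 7 dpi, had 35.1 CPM. In T cells it was 206, 517, 552 and 284 CPM, 2.50 (2.20 to 2.86) times higher at 1 dpi than in Uninjured. In monocytes and macrophages it was 274, 189, 301 and 307 CPM, with 1 dpi as the lowest library. NK cells led in Uninjured with 537 CPM and at 1 dpi with 728 CPM, above the intervals of the next class. In Uninjured the levels of endothelial cells (367 CPM), MSC lineage cells, and monocytes and macrophages overlapped in turn, and satellite cells and Schwann cells stood low with 56.3 and 49.5 CPM. B cells had 59.1 to 96.9 CPM in the 4 libraries, and their intervals overlapped.

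Irf1, the transcription factor (ENSMUSG00000018899, chromosome 11, 53770014 to 53778374), was higher at 1 dpi in satellite and Schwann cells and hardly differed in MSC lineage cells. The gene overlaps Gm17334 on the other strand, which is no row of the count tables. MSC lineage cells had 264 CPM in Uninjured, 250 at 1 dpi, 167 at 3 dpi and 90.5 at 7 dpi. Their level at 1 dpi was 0.949 (0.923 to 0.975) of the uninjured one. Satellite cells and myoblasts, the muscle stem cells and their progeny, had 295, 731, 166 and 131 CPM, 2.47 (2.15 to 2.84) times higher at 1 dpi. Schwann cells, the glia of peripheral nerve, had 270, 586, 711 and 211 CPM, 2.17 (1.85 to 2.56) times higher at 1 dpi. At 1 dpi the satellite cell level was within the interval of plasmacytoid dendritic cells, a type I interferon source, which had 762 CPM at 1 dpi and 755 CPM at 3 dpi. In monocytes and macrophages the values were 163, 315, 206 and 110 CPM, and the ratio of 1.94 (1.73 to 2.17) was just short of 2-fold. T cells had 167, 203, 244 and 178 CPM and NK cells 209, 198, 211 and 126 CPM, none past 2-fold at 1 dpi. Endothelial cells, the lining of vessels, had 286, 464, 511 and 293 CPM, with 32 UMIs in Uninjured.

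**Figure D2:**
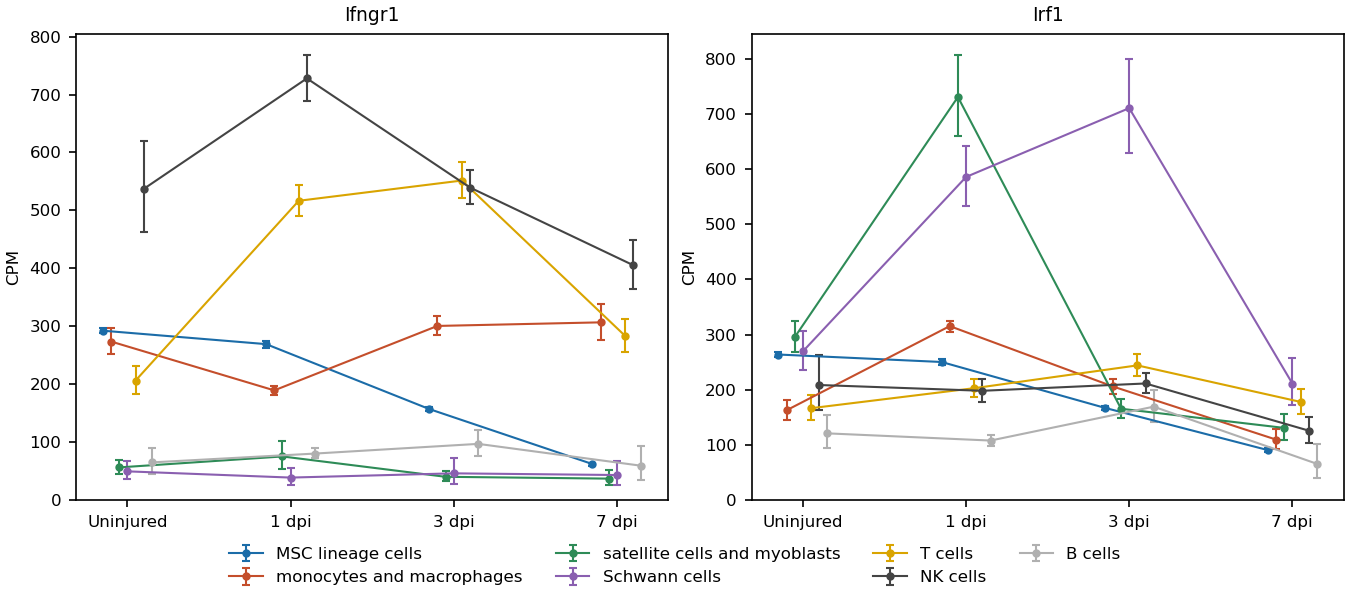
Levels of Ifngr1 (left) and Irf1 (right) in CPM by library for 7 classes, with 95% Poisson intervals as bars. Ifngr1 is lowest at 7 dpi in MSC lineage cells, with 62.1 CPM, while it is highest at 1 and 3 dpi in T cells, and Irf1 stands highest at 1 dpi in satellite cells and at 3 dpi in Schwann cells.

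The 6 GTPases were higher together at 1 dpi in MSC lineage cells. Their summed level was 159 CPM in Uninjured, 564 at 1 dpi, 258 at 3 dpi and 108 at 7 dpi, a ratio of 3.54 (3.46 to 3.63) at 1 dpi and a 5.21-fold lower level at 7 dpi than at 1 dpi. At 1 dpi 6 of 6 GTPases were past 2-fold higher, beside 7.19% of the 13559 genes tested in these cells. Over the 9 genes it was 7, the seventh being Ifng at 25 and 44 UMIs. That is 0.333 and 1.56 CPM, beside 2.76 CPM at 1 dpi in B cells, which should lack Ifng, so that nothing is drawn from it. From 1 to 3 dpi 4 of 6 were past 2-fold lower, beside 5.35% of all genes, and from 1 to 7 dpi all 6 were, beside 12.8%. The median log2 ratio at 1 dpi was 1.65 for the GTPases and 0.15 for all genes tested. At 7 dpi Gbp2 lay 2.48-fold below Uninjured, whereas Gbp3 and Gbp7 were at 0.979 (0.871 to 1.10) and 0.968 (0.880 to 1.06) of it.

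Of the guanylate binding proteins, which assemble as coats on membranes of microbes, Gbp2 (ENSMUSG00000028270, chromosome 3, 142620602 to 142638008) led the 3 in MSC lineage cells at 1 dpi. It was 40.5 CPM in Uninjured, 82.9 at 1 dpi, 31.4 at 3 dpi and 16.3 at 7 dpi, a ratio of 2.05 (1.94 to 2.16) at 1 dpi whose interval includes 2. Gbp3 (ENSMUSG00000028268, chromosome 3, 142560026 to 142573209) was at 12.5, 59.3, 20.1 and 12.2 CPM, 4.76 (4.39 to 5.16) times higher at 1 dpi. Gbp7 (ENSMUSG00000040253, chromosome 3, 142530342 to 142550149) was at 18.6, 57.8, 34.6 and 18.0 CPM, 3.10 (2.89 to 3.33) times higher at 1 dpi. The 3 genes lie close to each other on chromosome 3 and are of similar sequence, so that reads may be split between them and their relatives.

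Of the immunity related GTPases, Iigp1 (ENSMUSG00000054072, chromosome 18), an effector that attacks vacuoles of intracellular microbes, had the highest level in MSC lineage cells. It was 43.8 CPM in Uninjured, 251 at 1 dpi, 124 at 3 dpi and 33.1 at 7 dpi, 5.74 (5.51 to 5.99) times higher at 1 dpi. Irgm1 (ENSMUSG00000046879, chromosome 11, 48861968 to 48871683), a regulator that guards the membranes of the cell itself, was at 32.6, 77.3, 28.6 and 18.7 CPM, 2.37 (2.24 to 2.51) times higher. Igtp (ENSMUSG00000078853, chromosome 11, 58199556 to 58207591), a further regulator of the family, was at 11.3, 35.6, 19.6 and 9.78 CPM, 3.16 (2.88 to 3.47) times higher. The gene overlaps Irgm2 on the same strand, so that its counts are uncertain. With cells thinned to 1000 UMIs, MSC lineage cells with at least 1 of the 6 GTPases made up 13.6% in Uninjured, 32.5% at 1 dpi, 20.6% at 3 dpi and 9.04% at 7 dpi. Those with 2 or more of them made up 1.30%, 7.73%, 2.95% and 0.842%. At 1 dpi Irf1 was found in 26.1% (22.2 to 30.4%) of thinned MSC lineage cells with Iigp1 and in 18.0% (16.6 to 19.6%) of those without. By the ratio of the 2 shares, Igtp differed most of the other GTPases at 1 dpi, with 6.91% against 2.82%, and Gbp2 least, with 10.6% against 6.83%. At 3 dpi Igtp differed least, with 2.72% against 1.89%. Ifngr1 was found in 19.0% of cells with Iigp1 and 24.9% of those without at 1 dpi. That order did not hold in all libraries. Ifngr1 was at 29.5% against 24.5% in Uninjured, 18.3% against 18.9% at 3 dpi and 5.93% against 6.70% at 7 dpi.

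**Figure D3:**
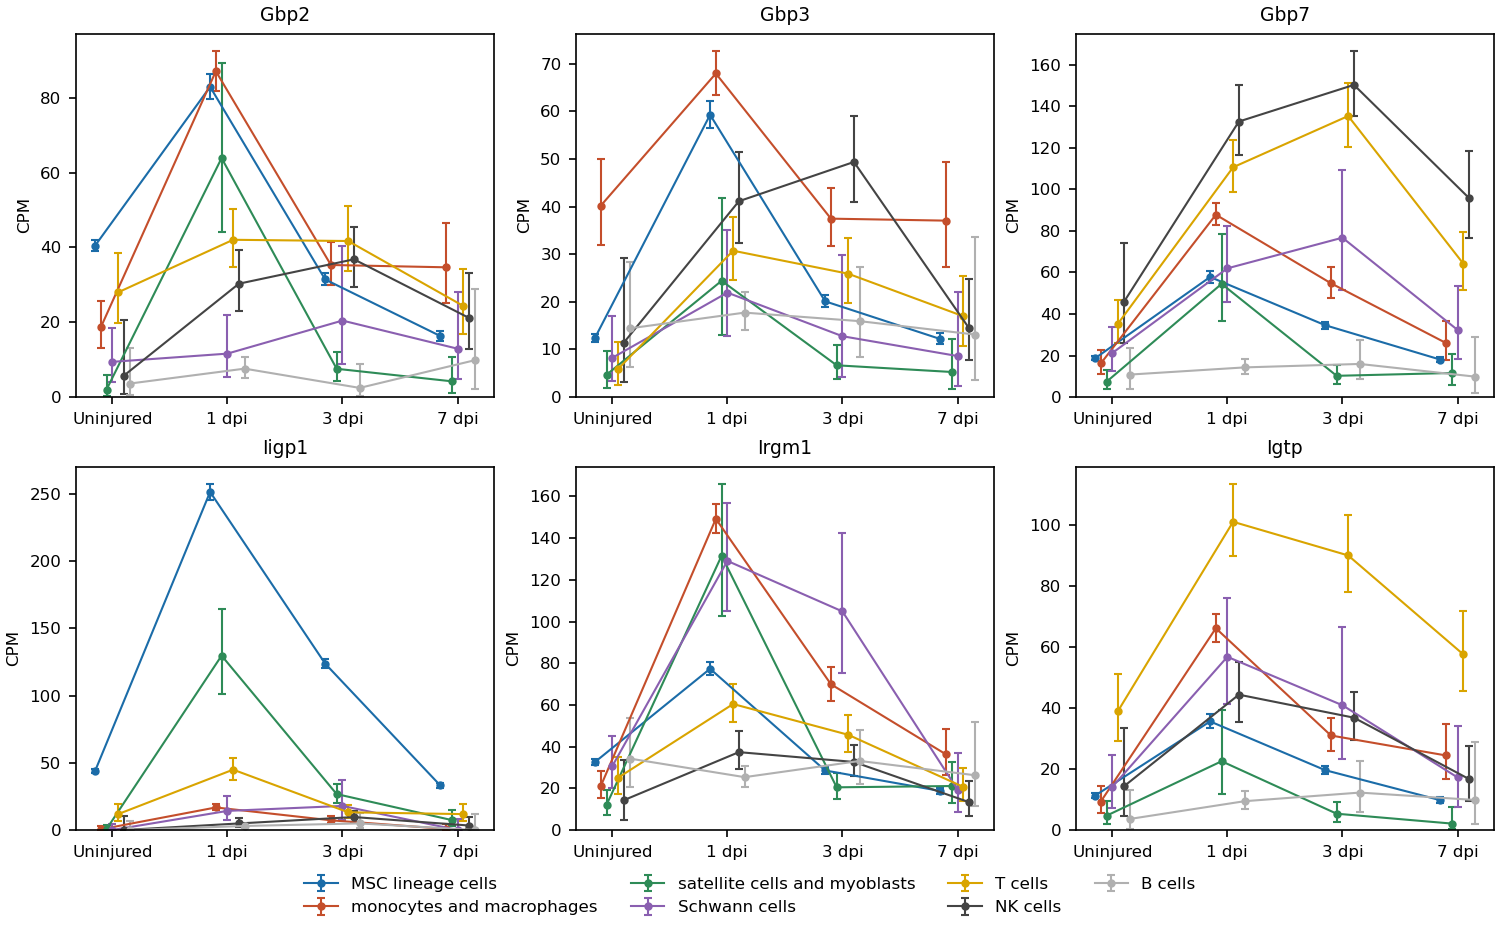
Level of each of the 6 GTPases in CPM (vertical axes, which differ between panels) by library for 7 classes, with 95% Poisson intervals as bars. MSC lineage cells, monocytes and macrophages, and satellite cells are highest at 1 dpi in every panel. T, NK and Schwann cells have their highest Gbp7 level at 3 dpi, with intervals that overlap those at 1 dpi, and B cells are at 34.3 CPM at most.

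Monocytes and macrophages, which engulf debris after injury, also had more of the GTPases at 1 dpi, with other leading genes. The 6 genes summed to 106, 475, 236 and 159 CPM, 4.49 (3.92 to 5.16) times higher at 1 dpi than in Uninjured. The class numbered 252 cells in Uninjured and 1576 at 1 dpi, and whether these were cells of the same kinds was not tested. Gbp3 alone held 50 UMIs in Uninjured by itself. The other 5 genes reached the 50 UMIs through the library at 1 dpi, so that no count over them at 1 dpi is drawn on. Of all genes tested 15.4% were past 2-fold higher at 1 dpi. From 1 to 3 dpi 4 of 6 GTPases were past 2-fold lower, beside 3.89% of all genes. Iigp1, counted among them, held 204 UMIs at 1 dpi and 30 at 3 dpi, and reached the 50 UMIs through the library at 1 dpi. Irgm1 led at 1 and 3 dpi, with 21.1, 149, 69.9 and 36.3 CPM, 7.08 (5.23 to 9.82) times higher at 1 dpi. Igtp was at 9.32, 66.2, 31.0 and 24.4 CPM, Gbp7 at 16.2, 87.8, 54.8 and 26.0 CPM, and Gbp2 at 18.6, 87.1, 35.3 and 34.7 CPM. Gbp3, at 40.2, 68.0, 37.5 and 37.1 CPM, had a ratio of 1.69 (1.35 to 2.15) at 1 dpi, which did not pass 2-fold. Iigp1 was at 0.490, 16.8, 7.21 and 0.788 CPM, and its ratio of 34.2 (6.07 to 1357) rested on 1 UMI in Uninjured.

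Satellite cells and myoblasts had the highest ratio of the classes with summed values. Their sum was 31.5, 427, 77.0 and 51.7 CPM, 13.5 (9.86 to 19.0) times higher at 1 dpi. Of the 6 genes Iigp1 and Irgm1 reached the 50 UMIs, through the library at 1 dpi in which they were high, so that no count over them is drawn on; 12.2% of all genes tested were past 2-fold higher. Irgm1 was at 12.1, 132, 20.5 and 21.1 CPM, 10.9 (6.42 to 19.5) times higher. Iigp1 was at 0.670, 130, 26.7 and 7.38 CPM, and its ratio of 194 (33.6 to 7752) rested on 1 UMI in Uninjured and 69 UMIs at 1 dpi. MSC lineage cells were the class with the most Iigp1 UMIs, though not the highest level. Their summed marker list was at 916 CPM in satellite cells and myoblasts in Uninjured and 985 CPM at 1 dpi. In MSC lineage cells at 1 dpi it was at 26089 CPM. Whether Iigp1 UMIs of other cells were counted in satellite cells was not tested.

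Schwann cells and endothelial cells differed from each other in which GTPase led. Schwann cells summed to 83.6, 296, 274 and 90.5 CPM, 3.54 (2.70 to 4.68) times higher at 1 dpi, where 6.6% of all genes tested were past 2-fold higher. Gbp7, Irgm1 and Igtp reached the 50 UMIs, again through the library at 1 dpi. Irgm1 was at 30.6, 129, 105 and 19.4 CPM and led at 1 and 3 dpi, while Gbp7 was at 21.2, 61.95, 76.7 and 32.3 CPM. Endothelial cells were high before injury, with sums of 725, 1125, 886 and 932 CPM and a ratio of 1.55 (1.22 to 1.997) at 1 dpi that did not pass 2-fold. With cells thinned to 1000 UMIs the log2 ratio was 1.19 in place of 0.63. Their Iigp1 was at 260, 644, 457 and 410 CPM, 2.48 (1.68 to 3.79) times higher at 1 dpi, where 7.35% of all genes tested were past 2-fold higher. It held 29 UMIs in Uninjured and 221 at 1 dpi, and thus reached the 50 UMIs through the library at 1 dpi. Gbp7 was at 170, 140, 114 and 207 CPM. At 1 dpi Iigp1 in endothelial cells was 2.56 (2.23 to 2.93) times that in MSC lineage cells, which in turn was 14.995 (13.0 to 17.3) times that in monocytes and macrophages.

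T cells and NK cells, the cells with Ifng, also had more of the GTPases at 1 dpi and had near the same level at 3 dpi. T cells summed to 145, 390, 352 and 196 CPM, 2.69 (2.31 to 3.14) times higher at 1 dpi, where 20.9% of all genes tested were past 2-fold higher. Igtp alone held 50 UMIs in Uninjured by itself. The other 5 genes reached the 50 UMIs through the library at 1 dpi, so that no count over them is drawn on. The background in T cells was high, with a median log2 ratio of 0.46 over all genes. The median over the 6 GTPases was 1.51. The limit of 50 UMIs raises that value as it does a count, so that it is not set against the median over all genes. Gbp2, with 28.0 and 42.1 CPM and a ratio with an interval of 1.03 to 2.23, did not pass 2-fold. NK cells summed to 91.4, 291, 316 and 165 CPM, 3.18 (2.22 to 4.70) times higher at 1 dpi, where 12.4% of all genes tested were past 2-fold higher. The 5 genes other than Iigp1 reached the 50 UMIs through the library at 1 dpi, with 2 to 16 UMIs each in Uninjured. Between 1 and 3 dpi the ratio was 0.903 (0.823 to 0.989) in T cells and 1.09 (0.971 to 1.22) in NK cells, against 0.457 (0.446 to 0.468) in MSC lineage cells; the difference was not tested.

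At 1, 3 and 7 dpi Gbp7 had the highest level of the 6 genes in both lymphocyte classes. In T cells its intervals overlapped those of Igtp at 1 and 7 dpi. It was at 45.7, 133, 150 and 95.8 CPM in NK cells and 35.4, 111, 135 and 64.2 CPM in T cells. Igtp was high in T cells with 39.05, 101, 90.0 and 57.6 CPM. Iigp1 was low in NK cells, at 0, 4.87, 9.63 and 3.34 CPM, and in T cells it was at 11.8, 44.9, 13.2 and 11.8 CPM. Within T cells at 1 dpi Iigp1 was at 79.1 CPM in CD4 and 20.6 CPM in CD8 T cells, a CD8 to CD4 ratio of 0.260 (0.153 to 0.427).

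In B cells, which make antibodies, no such difference was detected. Their 6 genes summed to 66.7, 77.4, 84.6 and 69.0 CPM, a ratio of 1.16 (0.824 to 1.68) at 1 dpi, with an interval that ends below 2. B cells numbered 201 in Uninjured and 1358 at 1 dpi, and granulocyte progenitors numbered 3 and 162. Whether these libraries held the same kinds of B cells was not tested. Chondrocytes at 7 dpi had a sum of 44.2 CPM, below the 108 CPM of MSC lineage cells in the same library.

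**Figure D4:**
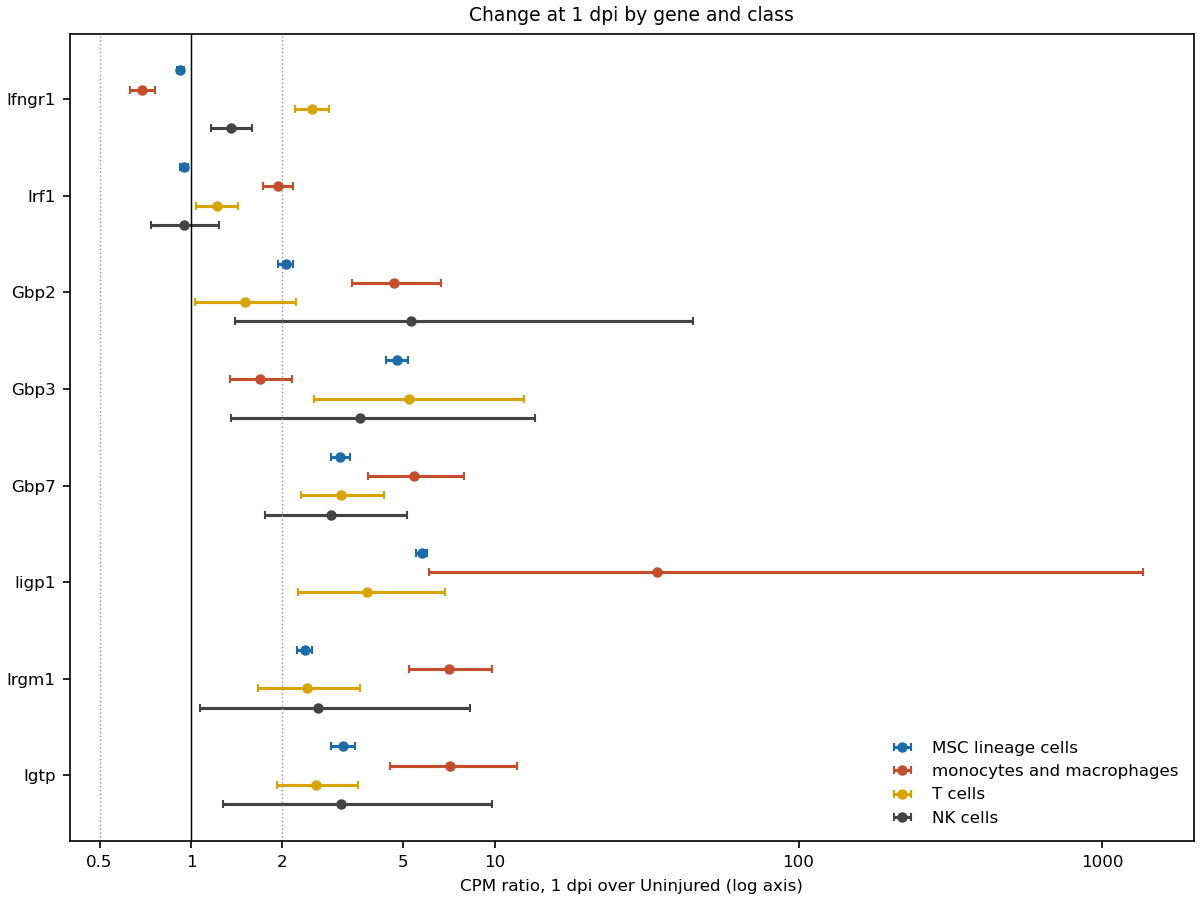
Ratio of CPM at 1 dpi to Uninjured (horizontal log axis) for Ifngr1, Irf1 and the 6 GTPases in 4 classes, with 95% intervals as bars, for genes with at least 50 UMIs in both libraries together. Dotted lines mark ratios of 0.5 and 2. The plotted GTPase points lie above 1, and Ifngr1 and Irf1 lie on both sides of it. Outside MSC lineage cells most GTPases reached the 50 UMIs only through the library at 1 dpi. That limit favours points above 1, so that nothing is drawn from their side in those classes. The bar for Iigp1 in monocytes and macrophages is wide because Uninjured held 1 UMI.

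The make-up of the GTPase signal thus differed by class. At 1 dpi Iigp1 held 57.3% of the UMIs of the 6 genes in endothelial cells, 44.5% in MSC lineage cells and 30.4% in satellite cells, but 3.53% in monocytes and macrophages, 1.68% in NK cells and 3.87% in B cells. Irgm1 held 43.7% in Schwann cells and 31.4% in monocytes and macrophages, and Gbp7 held 45.6% in NK cells and 28.4% in T cells. Over all kept cells 75.7% of the 22912 Iigp1 UMIs lay in MSC lineage cells, against 47.4% of the 11150 Gbp7 UMIs. The class held 185296570 of the 347252543 UMIs of all genes in the kept cells, so that a large share is due to its size.

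**Figure D5:**
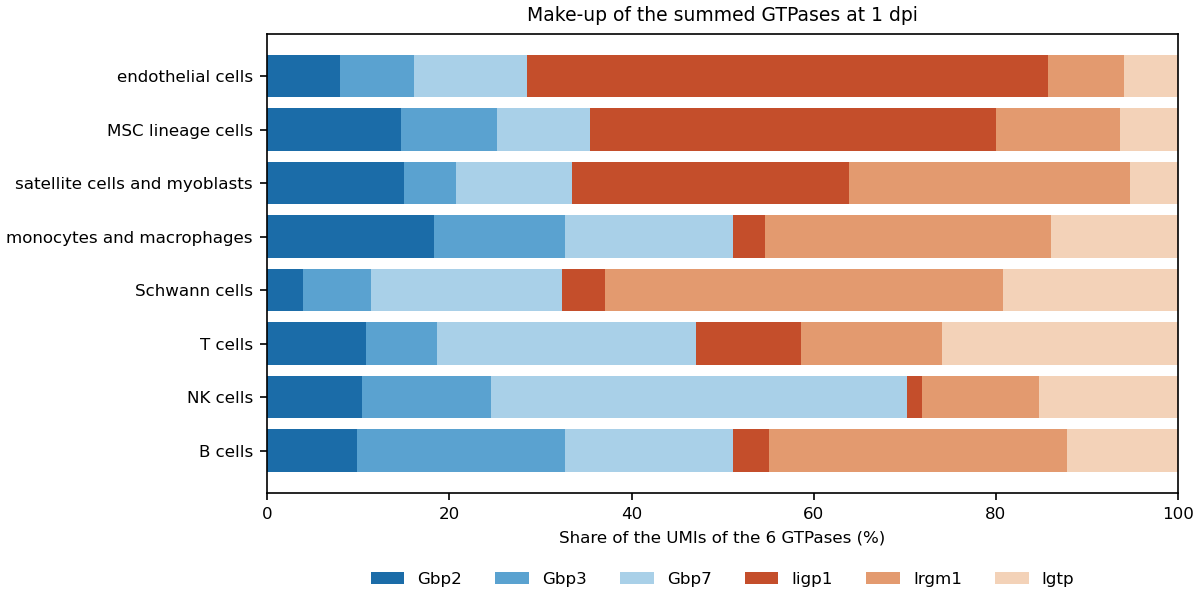
Share of each gene in the UMIs of the 6 GTPases at 1 dpi (horizontal axis, percent) for 8 classes, as stacked bars that add up to 100%. Iigp1 takes 57.3% in endothelial cells and 1.68% in NK cells, where Gbp7 takes 45.6%.

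Across 47 profiles of a class in a library, with at least 50 cells each, the genes most like Ifng were Txk, Sh2d1a, Il2rb, Crtam and Gm43065 (Pearson r of 0.98 for Txk on log2 CPM with 10 added). The genes most like Gbp2 were Gbp7 (0.78), Gbp3, Gbp5, Irgm2 and Iigp1, and those most like Iigp1 were Tek (0.87), Npr1, Galnt15, Il20rb and Fmo2. For Irf1 the highest value was 0.71, for Fam168a. Among the members Gbp7 and Igtp had an r of 0.84, and Ifng and Iigp1 one of -0.12. These values describe profiles that share libraries and carry no p-value.

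Other genes of the pathway were read from 7 lists in the same cells. Of 9 other interferon gamma inducible GTPases with enough UMIs in MSC lineage cells, all 9 were past 2-fold higher at 1 dpi (7.19% of all genes), with Ifi47 5.95, Irgm2 3.80, Gbp6 2.75 and Gbp5 2.48 times higher. In monocytes and macrophages it was 8 of 8 (15.4% of all genes), in T cells 4 of 7 (20.9%) and in NK cells 2 of 5 (12.4%). In this and the following lists a gene with few uninjured UMIs is counted only if it was high at 1 dpi, which raises such counts. Of the genes of the receptor and its signalling, the 4 with the most UMIs were not past 2-fold in MSC lineage cells, Socs3 with a ratio of 1.00, Jak1 with 1.13, Stat3 with 1.82 and Socs1 with 0.728. Others of that list were past 2-fold higher, among them Stat2 at 31.5 and 80.0 CPM, Irf9 at 35.5 and 81.9 CPM and Irf8 at 1.01 and 5.48 CPM in Uninjured and at 1 dpi, and no count over the list is given. Of 12 genes of antigen processing 3 were past 2-fold higher in MSC lineage cells (7.19% of all genes), Tapbp, Tap1 and Nlrc5, while B2m was 1.82 times higher and H2-D1 was at 0.928. In monocytes and macrophages 4 of 13 were past 2-fold higher (15.4% of all genes) and Ciita, the regulator of class II genes, was past 2-fold lower at 0.403 (0.323 to 0.506).

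The CXCR3 ligands, which draw T and NK cells, were not past 2-fold at 1 dpi in MSC lineage cells, with 160, 153, 181 and 87.7 CPM for Cxcl10 and 43.3, 78.8, 63.6 and 50.4 CPM for Cxcl9. In monocytes and macrophages Cxcl9 was past 2-fold higher at 1 dpi, at 2.83 (1.40 to 6.69) on 8 uninjured UMIs, and Cxcl10 was not, at 1.32 (1.24 to 1.42). Dendritic cells went the other way, with Cxcl10 at 0.186 (0.150 to 0.229) of Uninjured at 1 dpi, from 395 and 116 UMIs. Genes known as type I interferon targets also differed between libraries. In MSC lineage cells 14 of 16 were past 2-fold higher at 1 dpi (7.19% of all genes), with a median ratio of 6.25 against 1.11 over all genes, and in monocytes and macrophages 16 of 16 were (15.4% of all genes). Isg15, a ubiquitin-like modifier, was at 28.5, 235, 127 and 82.4 CPM in MSC lineage cells and Irf7 at 29.6, 186, 62.4 and 30.9 CPM. In NK cells 2 of 11 were past 2-fold higher, a share near the 12.4% of all genes, and Isg15 was at 0.510 (0.403 to 0.650) of Uninjured. Of the interferon genes and the type I receptor 2 had enough UMIs in MSC lineage cells, Ifnar1 (1.22) and Ifnar2 (0.919), neither past 2-fold. Ifnb1, the interferon beta gene, was at 7.84, 8.05, 13.2 and 11.8 CPM in monocytes and macrophages. In dendritic cells it was at 48.4, 8.45, 13.0 and 167 CPM, from 29, 8, 23 and 21 UMIs. Plasmacytoid dendritic cells held 0, 0, 2 and 0 Ifnb1 UMIs in 1, 42, 80 and 9 cells.

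The genes that induce Ifng or respond to its inducers were read in the cells with Ifng. In T cells 5 of 6 genes with enough UMIs were past 2-fold higher at 1 dpi, beside 20.9% of all genes. As in the lists above, a gene with few uninjured UMIs is counted only if it was high at 1 dpi, which raises this count. Il18r1, a receptor chain for interleukin 18, was at 45.7, 269, 254 and 89.3 CPM, 5.89 (4.54 to 7.76) times higher, and Eomes, a transcription factor of cytotoxic cells and a marker used for the NK class, was at 5.16, 53.0, 76.9 and 25.8 CPM. Il18rap (3.09) and Tbx21 (2.65) were past 2-fold as well, and Stat4 (0.987) was not. In NK cells 2 of 7 were past 2-fold higher, beside 12.4% of all genes. In MSC lineage cells Il18r1 was at 0.111 and Il12a at 0.293 of Uninjured.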

How the data were processed

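The authors deposited UMI counts per gene and cell, made with Cell Ranger 5.0.0 (STAR) on the mm10 build per the labels, which also name Seurat 3.1.1. The counts are whole numbers without scaling per cell. The protocol in the labels has Cell Ranger down-sample reads where needed to combine samples. Whether the deposited counts come before or after that step is not given in the sources used here. A cell was kept when log10 UMIs and genes were within 2 SD of the library mean (the log scale is a choice made here), at most 10% of UMIs were mitochondrial, and its Scrublet score (scanpy 1.11.5) was not among the highest 7.5% of its library.

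Cells needed at least 3 detected markers of a class and a lead of 10 percentage points over other classes. MSC lineage cells needed 6 of 8 markers, no Ptprc UMI and fewer than 3 markers of other classes. That limit did not cover erythroid markers, and for chondrocyte markers it was fewer than 4. The summed chondrocyte markers of MSC lineage cells were at 480 CPM at 7 dpi and 39.1 to 41.9 CPM in the other libraries. The scoring rule was set after the counts were seen, and an earlier form that left most MSC lineage cells without a class was dropped. Members, markers and gene lists were chosen with earlier results of these data known. The text names the 9 members, and for each list the genes with most UMIs and those past 2-fold the other way. One result of the receptor and signalling list, and with it the count over that list, is not reported here. Stat2, Irf8, Irf9, Tapbp, Tap1, Nlrc5, Eomes and Tbx21 were named after their values were seen. The contrasts behind the percentages over all genes, the T cell subsets and the promoter letters were also chosen then. The genes most like a member are the 5 with the highest Pearson r for each of Ifng, Irf1, Gbp2 and Iigp1.

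UMIs were summed per class and library. Ratios have exact conditional binomial intervals, levels exact Poisson and shares exact Clopper-Pearson intervals at 95%. With 1 library per time point no p-value was computed. Depth per library was 91146335 to 129007669 UMIs. The calculations were tested on simulated data. Software was Python 3.11.15, numpy 2.4.6, scipy 1.17.1, pandas 2.3.3, anndata 0.12.19 and matplotlib 3.10.9. Positions are from GENCODE M21 on GRCm38. The alternatives were doublets kept, linear SD limits, a 5% mitochondrial limit, 1 marker more or fewer, thinning to 1000 UMIs, means per cell, and technical genes left out of the total.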

Additional observations from a re-analysis of the deposited data

Results flagged for a closer look

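Some genes moved in opposite directions in different classes between the same libraries, by at least 1.5-fold each way with intervals that exclude 1. The size of 1.5-fold was chosen after the values were seen, Ifng was looked at in T and NK cells only, and none of these differences was tested, since each time point had 1 library. Ifng at 1 dpi was 1.70 times its uninjured level in T cells and 0.551 of it in NK cells. Ifngr1 at 3 dpi was 1.59 times its 1 dpi level in monocytes and macrophages and 0.583 of it in MSC lineage cells. Against Uninjured, Ifngr1 at 3 dpi was 2.67 times higher in T cells and at 0.537 in MSC lineage cells. Ifngr1 at 7 dpi was 1.62 times its 1 dpi level in monocytes and macrophages, and at 0.231 in MSC lineage cells, 0.557 in NK cells and 0.549 in T cells. Gbp2 at 7 dpi was 1.86 times its uninjured level in monocytes and macrophages, on 44 and 38 UMIs, and at 0.404 in MSC lineage cells. Irgm1 at 7 dpi was 1.72 times its uninjured level in monocytes and macrophages, on 46 and 43 UMIs, and at 0.574 in MSC lineage cells.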

How the results depend on the processing

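Of 59 alternatives over 7 results, 44 gave a value within the interval of the reported one, and all 52 for ratios kept the direction. Values outside the interval follow, as log2 ratios, and the cause was not tested. Ifng in T cells at 3 over 1 dpi (1.27) was 1.71 with CD4 T cells alone, an alternative chosen after seeing the data. The summed GTPases in MSC lineage cells at 1 dpi over Uninjured (1.83) were 1.87 with a 5% mitochondrial limit, 1.64 after thinning and 1.70 as the mean per cell. At 7 over 1 dpi (-2.38) they were -2.17 with 1 marker fewer, -2.29 after thinning, -2.32 as the mean per cell, -2.31 without technical genes and -2.85 with tenocytes and chondrocytes included, also chosen after seeing the data. In endothelial cells (0.63) the value was 1.19 after thinning, above 2-fold. The share of Ifng UMIs in NK and T cells (75.0% as reported) was 69.4% with doublets kept, 63.6% with 1 marker more, 80.2% with 1 fewer, 73.4% after thinning and 72.3% as the mean per cell. The alternative without technical genes was not run for that share, which has no such total.

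No paired analysis was possible because each time point had 1 library, for which reason no library was left out. Library, pool of mice and time point cannot be told apart. Cells without a class, 6.23% in Uninjured and 34.0% at 7 dpi, held 19.4% of Ifng UMIs, and depth per cell was lowest at 7 dpi. Endothelial values rest on 23 uninjured cells.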
